A study of Mus musculus with 15 samples.

Results

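The collagen genes were taken as the entries of the deposited count table whose symbol is Col, a number, the letter a and a number, which gave 43 genes of 18804. Sorted by the class of collagen that their chains build, they were 11 fibrillar chains, 6 basement membrane (type IV) chains and 26 chains of other classes. The data are RNA-seq counts from mesenchymal stem cells of C57BL/6J mice, which the study isolated from ears and differentiated into white adipocytes in culture. In every group differentiation was induced with methylisobutylxanthine, dexamethasone, insulin and the PPARγ agonist troglitazone (the study's methods also name rosiglitazone), and cells were harvested on day 16. The day 0 group stayed at 37°C throughout, the day 1 group went into the 31°C incubator on day 15, and the day 12 group did so on day 4 and matured mostly in the cool. Each group held 5 libraries, 15 in all. The comparisons ask how collagen transcripts of cultured white adipocytes change at the cool temperature of peripheral fat. The sources used here do not state how many mice or cultures stand behind each set of 5 libraries, so p-values measure only the spread between these libraries.

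Collagens are extracellular proteins in which 3 chains wind into a helix. Fibrillar collagens form the tensile fibrils of connective tissue, type IV collagen forms the sheet of the basement membrane that wraps each adipocyte, and type VI collagen forms beaded filaments that are abundant in adipose tissue. FACIT collagens lie on fibrils without forming them, multiplexins sit between basement membranes and the matrix, and other members form networks, anchor epithelia or span the plasma membrane. Many collagens are built from chains of different genes, and chains are hydroxylated and folded in the endoplasmic reticulum before secretion. Both precursor cells and adipocytes secrete collagens, and in RNA from whole cultures fewer cells of a type and less RNA per cell cannot be told apart.

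Total counts ranged from 64648178 to 133270973 per library, and 37 of the 43 collagen genes passed the filter on low counts, among 14293 genes tested. Levels are given as CPM, the counts scaled to library size with TMM factors, with the SD over n = 5 libraries, and as CPM per kb of mRNA where genes are compared with each other. A gene was called higher or lower at a Benjamini-Hochberg adjusted p under 0.05 over all genes tested (edgeR, quasi-likelihood test) and a fold change over 1.5. Of 10 adipocyte markers, 9 reached 1 CPM in each group, and their summed level was 4751 to 5444 CPM at day 0, 5837 to 6519 CPM at day 1 and 5292 to 5890 CPM at day 12. Members went both ways, with calls in 2 of 10 up and 1 down at day 1, and in 3 up and 3 down at day 12. Among these, Fabp4, a lipid carrier, was at 828 ± 66.0, 1399 ± 62.3 and 1617 ± 75.5 CPM at days 0, 1 and 12, and Adipoq, the hormone adiponectin, at 1095 ± 41.4, 1126 ± 33.5 and 464 ± 9.71 CPM at days 0, 1 and 12. Summed fibroblast and progenitor markers were at 9818 to 10530 CPM at day 0, 9132 to 9350 CPM at day 1 and 7365 to 7767 CPM at day 12, when 3 of 8 tested (Ly6a, Dlk1 and Lum) were called lower. None was called higher against day 0. Pdgfra rose by less than 1.5-fold, from 562 ± 21.45 CPM at day 0 to 712 ± 7.33 CPM at day 12. Pdgfrb did so as well, from 131 ± 5.67 to 184 ± 10.7 CPM. Summed cycling-cell markers were at 48.6 to 59.3 CPM at day 0, 58.3 to 68.8 CPM at day 1 and 148 to 179 CPM at day 12, when 5 of 5 were called higher. Summed myofibroblast markers were at 381 to 438 CPM, 491 to 653 CPM and 419 to 535 CPM at days 0, 1 and 12, while 2 of 5 (Cnn1 and Myh11) were called lower at day 12 and none was called higher at either time. The 5 mesothelial markers summed to no more than 2.25 CPM at days 0 and 1 and to 23.4 to 38.3 CPM at day 12, when Wt1 was at 0. Endothelial markers summed to at most 1.48 CPM, leukocyte markers to at most 12.9 CPM and Schwann cell markers to at most 78.5 CPM. Keratinocyte markers summed to 47.9 to 55.0 CPM at day 0, 20.6 to 23.1 CPM at day 1 and 58.15 to 66.3 CPM at day 12. Of these, Krt5 and Krt1 were at 0 at days 1 and 12, and Krt14 at day 12. The part of these cell types in the collagen results was not tested. Over all tested genes, 7.71% were called higher and 13.4% lower at day 1, and 13.0% and 16.2% at day 12.

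Collagen transcripts were abundant in these cultures and made up a smaller share of counts at 31°C. They held 3.10% ± 0.061 (SD, n = 5) of all counts at day 0, 2.60% ± 0.036 at day 1 and 2.67% ± 0.041 at day 12, and both groups at 31°C lay below the day 0 range of 3.03% to 3.17%. The 5 most counted members, Col3a1, Col1a2, Col12a1, Col6a1 and Col1a1, held a median of 64.7%, 67.5% and 63.5% of collagen counts at days 0, 1 and 12. Per kb of mRNA the levels at day 0 were led by 1209 CPM per kb ± 33.2 for Col3a1, 938 CPM per kb ± 30.6 for Col1a2, 815 CPM per kb ± 34.4 for Col6a1, 447 CPM per kb ± 29.4 for Col1a1 and 388 CPM per kb ± 15.3 for Col6a2, and each of these ranges was clear of the next. Col5a2, Col12a1 and Col8a1 followed at 306 CPM per kb ± 11.2, 294 CPM per kb ± 13.7 and 283 CPM per kb ± 8.42, where the range of Col12a1 overlapped both others. Fibrillar chains held 55.0% ± 0.53 of collagen CPM per kb at day 0, 54.1% ± 0.70 at day 1 and 51.8% ± 0.39 at day 12, and type IV chains 6.79% ± 0.13, 6.77% ± 0.20 and 7.60% ± 0.14. The day 12 share was below both other days for fibrillar chains and above both for type IV chains. At the other end, Col4a3, Col6a4, Col6a5, Col6a6, Col13a1 and Col19a1 reached at most 24 counts in any library and were not tested.

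**Figure D1:**
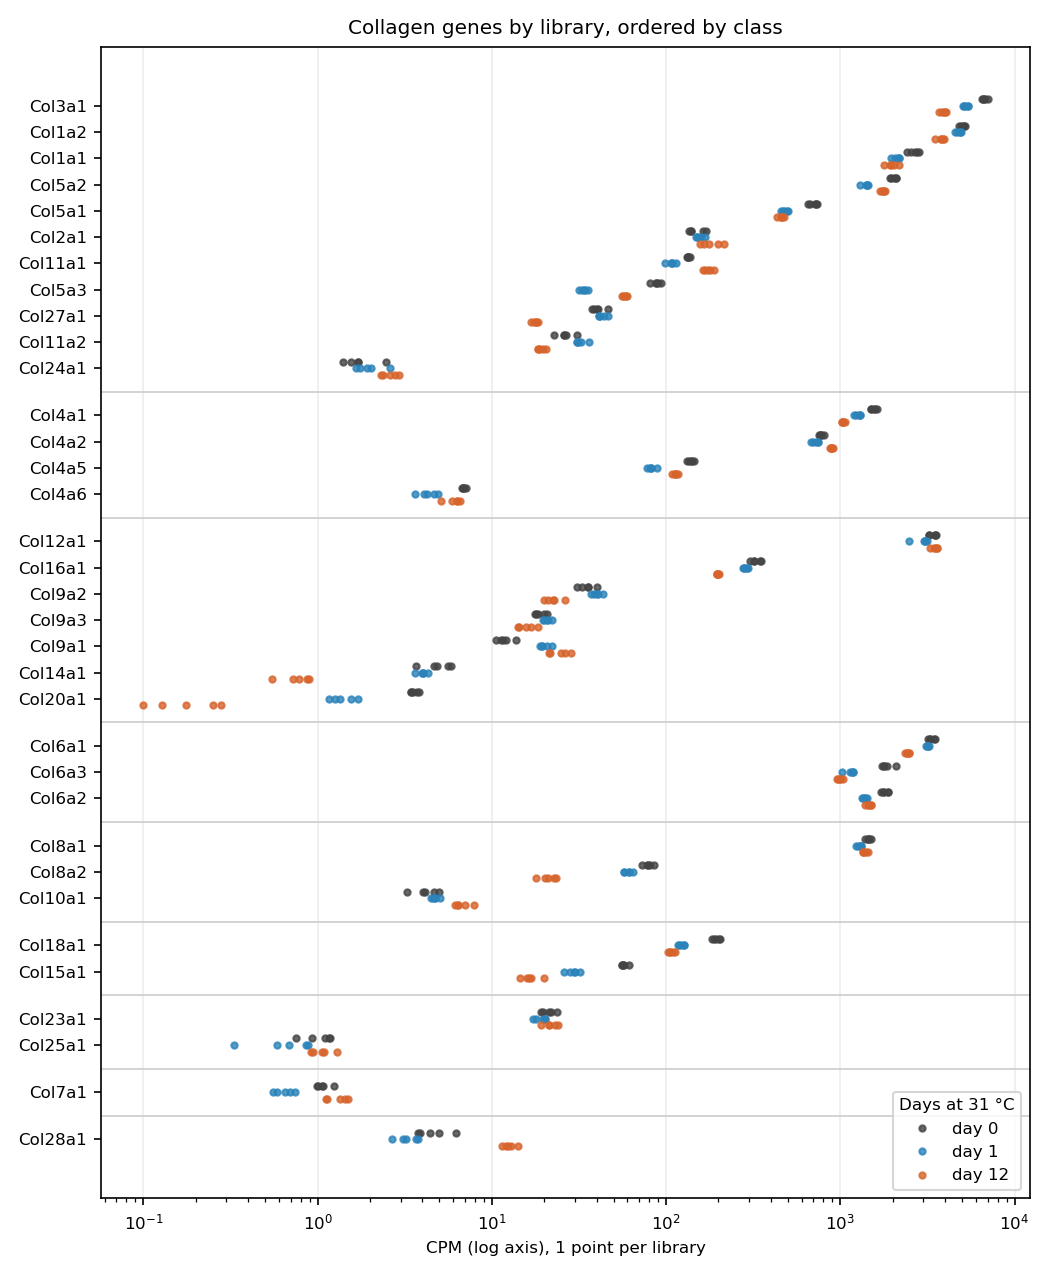
CPM on a log axis for the 34 collagen genes with a group mean of at least 1 CPM, 1 point per library, with the classes set apart from top to bottom. Levels run from 7008 CPM for Col3a1 in a day 0 library to 0.100 CPM for Col20a1 in a day 12 library, and the day 12 points of Col20a1, Col14a1, Col8a2, Col15a1 and Col27a1 lie below all their other points.

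After 1 day at 31°C, 9 of the 37 tested collagen genes were called lower, where 13.4% of all tested genes were, and 2 were called higher, where 7.71% were. After 12 days, 13 were called lower, beside 16.2% of all genes, and 3 higher, beside 13.0%. From day 1 to day 12, 8 were called lower, beside 8.53% of all genes, and 5 higher, beside 10.6%. The median log2 fold change of the 37 genes was -0.305 at day 1 and -0.309 at day 12, where that of all tested genes was -0.00884 and 0.0123. Both use the same day 0 libraries and are not independent of each other. Scaling bears on these counts, and on those of all genes. With total counts alone the median of all genes at day 12 moved to 0.205, and the calls became 9 lower, beside 11.7% of all genes, and 5 higher, beside 20.9%. At day 1 they were 8 lower, beside 12.8%, and 2 higher, beside 8.26%, and from day 1 to day 12 they became 6 lower, beside 5.9%, and 8 higher, beside 15.7%. Scaled to the study's reference genes (Hprt, Tbp and Ppia), 12 were lower at day 1, beside 17.0% of all genes, and 2 higher, beside 5.41%. At day 12 these were 11 lower, beside 14.7%, and 5 higher, beside 14.9%, and from day 1 to day 12 they were 7 lower, beside 6.16%, and 8 higher, beside 15.1%. By adjusted p alone, 26 passed below day 0 at day 1 (36.2% of all genes did) and 4 above it (35.3%), and at day 12 these were 24 (37.4%) and 7 (39.2%). From day 1 to day 12, 16 fell (32.8%) and 17 rose (34.3%). Of the 2 called higher at day 1, 1 was called in the larger library number series, beside 7.29% of all genes, and 1 with genes of at least 1 CPM, beside 6.32%.

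**Figure D2:**
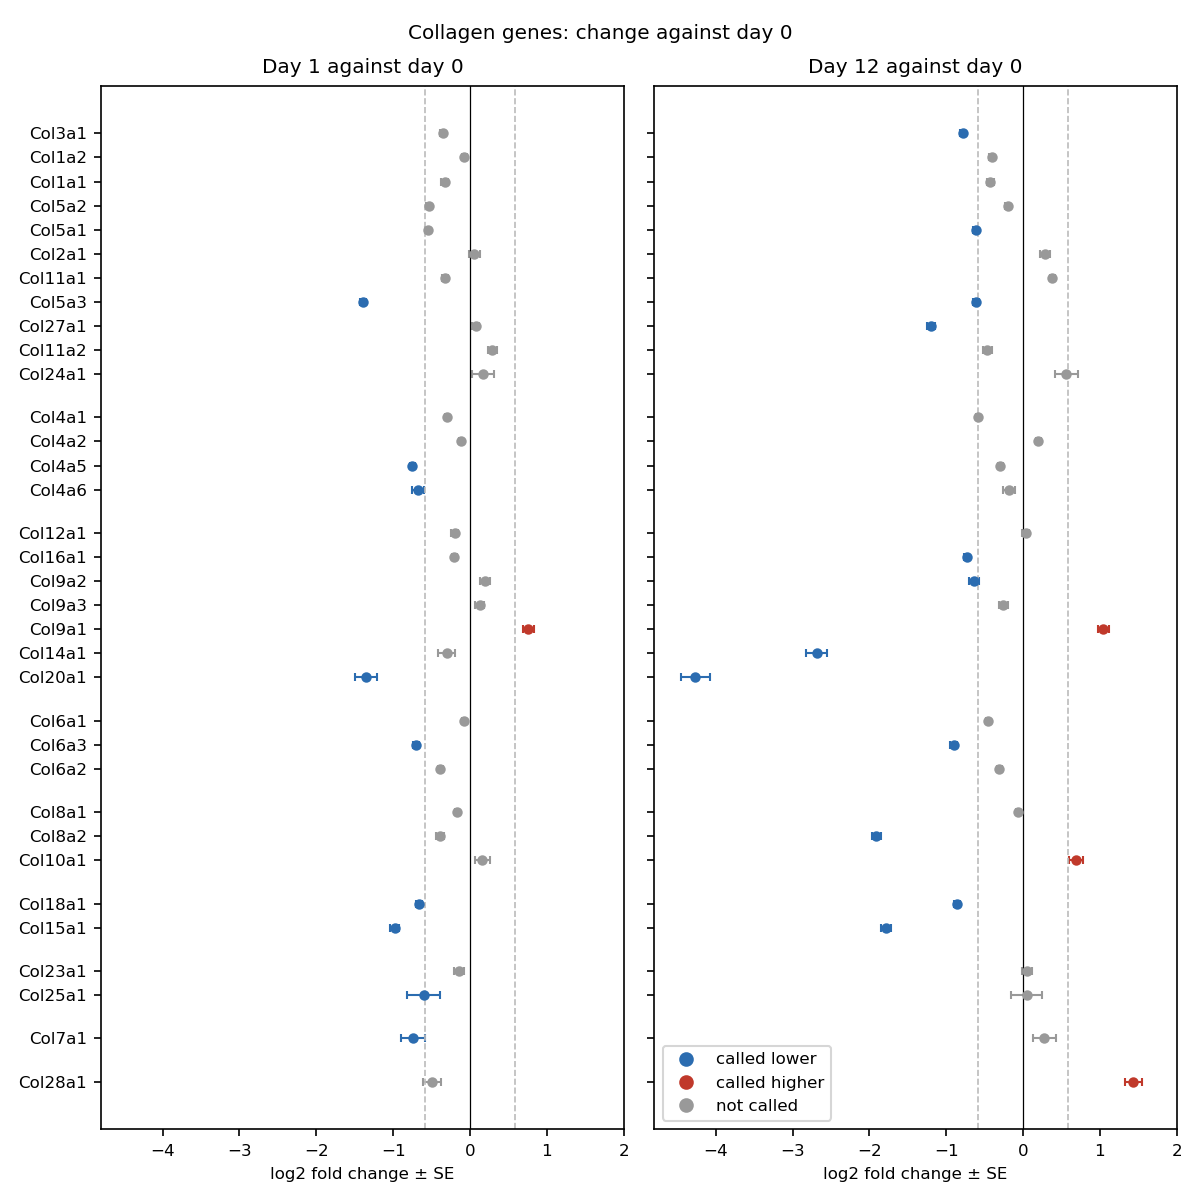
Log2 fold change with its SE at day 1 (left) and day 12 (right) against day 0 for the same 34 genes, with dashed lines at a 1.5-fold change and colour for the call (blue lower, red higher, grey not called). Most points lie left of 0 in both panels, the farthest is Col20a1 at day 12 at -4.27, and the red points are Col9a1 in both panels and Col10a1 and Col28a1 at day 12.

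Among the 11 fibrillar chains, 1 was called lower at day 1 (Col5a3), beside 13.4% of all tested genes. At day 12, 4 were called lower (Col3a1, Col5a1, Col5a3 and Col27a1), beside 16.2%. No fibrillar chain was called higher against day 0 by edgeR or DESeq2. By edgeR 7.71% of all tested genes were at day 1 and 13.0% at day 12. At an unadjusted p under 0.05, 1 fibrillar chain at day 1 and 3 at day 12 were above day 0. Col3a1, the chain of the type III fibrils of soft tissue, was at 6813, 6548, 6622, 7008 and 6644 CPM at day 0, at 5138, 5414, 5073, 5197 and 5434 CPM at day 1 and at 3929, 3680, 4013, 4041 and 3840 CPM at day 12. Its 3 days did not overlap, and the log2 fold change was -0.36 ± 0.03 (SE) at day 1, within the 1.5-fold limit, and -0.79 ± 0.03 at day 12 (edgeR adjusted p = 2.485e-17). Col1a1 and Col1a2 encode the chains of type I collagen, the main fibril of skin and bone. Col1a2 was at 5018 ± 164, 4769 ± 146 and 3789 ± 163 CPM at days 0, 1 and 12, with -0.41 ± 0.03 on the log2 scale at day 12, and Col1a1 at 2649 ± 175, 2106 ± 93.1 and 1975 ± 139.9 CPM at days 0, 1 and 12, with -0.33 ± 0.05 at day 1 and -0.42 ± 0.05 at day 12. Both fell short of the 1.5-fold limit at both times, and Col1a2 at day 1 overlapped day 0.

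Type V chains lie inside type I fibrils and limit their diameter, and each had its own course. Col5a3, a minor type V chain, was at 90.4, 87.3, 94.2, 81.0 and 87.6 CPM at day 0, at 31.7, 35.7, 32.8, 34.1 and 33.6 CPM at day 1 and at 58.2, 57.0, 55.6, 59.4 and 58.6 CPM at day 12. Day 1 was lowest and day 12 lay between the other days without touching either. Its log2 fold change at day 1, -1.39 ± 0.04 (adjusted p = 1.461e-19, edgeR), was the largest fall among the tested collagen genes at that time, that at day 12 was -0.61 ± 0.04, and it was called higher from day 1 to day 12 by 0.78 ± 0.04. The day 12 call was lost without day 0 replicate 3 (-0.58), with total counts (-0.42) and with reference genes (-0.55). Col5a2, part of the common type V trimer, was at 2024 ± 74.2, 1398 ± 61.8 and 1761 ± 47.7 CPM at days 0, 1 and 12, lowest at day 1 as well, with -0.53 ± 0.03 and -0.20 ± 0.03 on the log2 scale and no call, although it was called lower at day 1 with reference genes (-0.63). Its partner Col5a1 was at 701 ± 35.6, 479.5 ± 18.3 and 457 ± 13.9 CPM at days 0, 1 and 12. Its log2 fold change was -0.55 ± 0.03 at day 1, not called except with reference genes (-0.65), and -0.62 ± 0.03 at day 12, a call lost with total counts (-0.42) and reference genes (-0.56).

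The bases before the start of Col5a3 and of Col8a2, a network-forming chain described further on, are shown because these genes had the largest falls at day 1 and at day 12, respectively, among collagen genes above 10 CPM at day 0. They come from RefSeq on GRCm38.p6, at chr9:20815068-20815317 (minus strand) and chr4:126286544-126286792 (plus strand, ending before the first annotated exon), written on the strand of the gene. Capitals mark GC boxes (GGGCGG) and CCAAT boxes (CCAAT) on either strand.
Col5a3: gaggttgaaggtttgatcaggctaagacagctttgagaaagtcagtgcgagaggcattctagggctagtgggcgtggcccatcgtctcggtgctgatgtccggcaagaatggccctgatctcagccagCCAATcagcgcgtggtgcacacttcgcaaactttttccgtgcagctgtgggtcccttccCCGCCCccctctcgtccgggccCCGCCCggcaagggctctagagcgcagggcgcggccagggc
Col8a2: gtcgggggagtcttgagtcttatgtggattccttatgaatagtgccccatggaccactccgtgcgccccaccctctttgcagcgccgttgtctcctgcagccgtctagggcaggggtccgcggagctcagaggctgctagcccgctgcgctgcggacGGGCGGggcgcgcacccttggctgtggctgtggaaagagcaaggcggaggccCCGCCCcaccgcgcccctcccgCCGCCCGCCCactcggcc
In the 250 bases before its start, Col5a3 held 2 GC boxes and 1 CCAAT box, and Col8a2 held 4 GC boxes, of which the last pair overlaps, and no CCAAT box, and neither held a TATA box (TATAAA). Of 32851 such windows of all genes, 32.7% held a GC box, 33.8% a CCAAT box and 12.4% a TATA box. Of the 35 collagen genes with a window, 21 held a GC box (60.0%), 12 a CCAAT box (34.3%) and 5 a TATA box (14.3%). The 2 sets are unlike. Collagen genes were taken with 1 window each, whereas repeats were not removed from the 32851 windows, which outnumber the 18804 genes counted here.

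Col27a1, a chain found in cartilage and developing tissues, held its level for a day and was lower at day 12, at 40.4, 40.6, 46.3, 38.4 and 37.8 CPM at day 0, at 41.7, 41.1, 44.2, 46.2 and 41.1 CPM at day 1 and at 16.8, 18.1, 18.0, 18.4 and 17.4 CPM at day 12. Days 0 and 1 overlapped and day 12 lay below both, with log2 fold changes of 0.07 ± 0.05 and -1.20 ± 0.05 (adjusted p = 9.814e-17, edgeR). Col24a1, a rare fibrillar chain, was at 1.77 ± 0.42, 1.99 ± 0.37 and 2.60 ± 0.27 CPM at days 0, 1 and 12. Its 0.57 ± 0.15 at day 12 was just inside the limit and was called on leaving out replicate 2 of day 0 (0.72) or replicate 3 or 4 of day 12 (0.60 and 0.60), as it was with reference genes (0.62) and total counts (0.76).

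Type IV chains of the basement membrane did not move as one. Of 5 tested, Col4a5 and Col4a6 were called lower at day 1, and none was called higher there by edgeR or DESeq2 or at an unadjusted p under 0.05. At day 12 none was called by edgeR in either direction, while DESeq2 called 1 lower (Col4a1), and at an unadjusted p under 0.05 there were 3 lower and 1 higher. Over all tested genes, edgeR called 13.4% lower and 7.71% higher at day 1, and 16.2% and 13.0% at day 12. Col4a1 and Col4a2 encode the chains of the network common to nearly all basement membranes. Their genes lie head to head on chromosome 8 (GRCm38, GENCODE), at chr8:11198423-11312826 and chr8:11312805-11449287, so that their annotated first exons overlap. The overlap, from the start of Col4a2 to that of Col4a1, is shown because it is the whole distance between the starts of this pair. It lies at chr8:11312805-11312826 and is written on the strand of Col4a2, with a GC box in capitals.
Col4a2 and Col4a1 shared start: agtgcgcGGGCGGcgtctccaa
Col4a1 was at 1634, 1497, 1555, 1582 and 1507 CPM at day 0, at 1206, 1283, 1229, 1298 and 1294 CPM at day 1 and at 1039, 1059, 1023, 1043 and 1027 CPM at day 12. Col4a2 was at 805, 755, 762, 773 and 778 CPM at day 0, at 677, 726, 694, 744 and 741 CPM at day 1 and at 889.9, 905, 889, 896 and 869 CPM at day 12. Col4a1 stepped down at each time, whereas Col4a2 was lowest at day 1 and highest at day 12, with no overlap between days for either. Log2 fold changes at days 1 and 12 were -0.30 ± 0.03 and -0.58 ± 0.03 for Col4a1 and -0.11 ± 0.03 and 0.20 ± 0.03 for Col4a2. The day 12 value of Col4a1 sat at the limit and was also called on leaving out replicate 2 (-0.60) or 5 (-0.59) of day 0 or replicate 2 of day 12 (-0.59).

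The ratio of 2 genes' counts within a library does not depend on depth or scaling. Col4a1 counts over Col4a2 counts were 2.03, 1.98, 2.04, 2.05 and 1.94 at day 0, 1.78, 1.77, 1.77, 1.74 and 1.75 at day 1 and 1.17, 1.17, 1.15, 1.16 and 1.18 at day 12. The 3 days were apart, with a log2 ratio difference of -0.19 from day 0 to day 1 and of -0.78 from day 0 to day 12. Each difference had p = 0.00794, the smallest that an exact two-sided permutation test of 5 against 5 libraries can give, and adjusted p = 0.00974 over 27 such tests.

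Col4a5 and Col4a6, type IV chains of selected basement membranes, also lie head to head, on chromosome X, at chrX:141475385-141689234 and chrX:141165403-141474076, with 1309 bases between their starts. The bases before each start are shown to set this pair beside that on chromosome 8, at chrX:141474077-141474326 (minus strand) for Col4a6 and chrX:141475169-141475384 (plus strand, ending before the first annotated exon) for Col4a5, with the same boxes in capitals.
Col4a6: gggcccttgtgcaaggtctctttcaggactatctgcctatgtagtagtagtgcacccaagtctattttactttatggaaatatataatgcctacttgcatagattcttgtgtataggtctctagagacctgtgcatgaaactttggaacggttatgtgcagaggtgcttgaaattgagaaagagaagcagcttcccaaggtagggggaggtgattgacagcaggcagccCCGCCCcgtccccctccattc
Col4a5: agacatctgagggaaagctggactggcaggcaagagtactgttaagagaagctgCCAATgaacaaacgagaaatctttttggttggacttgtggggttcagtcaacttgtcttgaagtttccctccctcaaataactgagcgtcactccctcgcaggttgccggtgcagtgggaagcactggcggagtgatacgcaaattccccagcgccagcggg
In the 250 bases before its RefSeq start, Col4a6 held 1 GC box and no CCAAT box, and Col4a5 held 1 CCAAT box and 1 GC box, the latter in an annotated exon and not shown. In windows of this length, Col4a1 held 1 CCAAT box and no GC box, and Col4a2 held 1 CCAAT box and 2 GC boxes. Col4a5 was at 145, 136, 141, 131 and 139.5 CPM at day 0, at 78.1, 89.2, 81.9, 80.6 and 82.2 CPM at day 1 and at 113, 108, 113, 113 and 118 CPM at day 12. Col4a6 was at 6.82, 6.90, 6.74, 6.88 and 7.07 CPM at day 0, at 4.23, 4.10, 4.69, 4.94 and 3.61 CPM at day 1 and at 6.32, 5.08, 5.94, 6.32 and 6.56 CPM at day 12. Both were lowest at day 1 and lay between at day 12, with no overlap between days. Log2 fold changes at day 1 were -0.75 ± 0.03 and -0.68 ± 0.08, both called, and at day 12 -0.29 ± 0.03 and -0.19 ± 0.08, of which the latter turned to 0.0077 with total counts. Their count ratio was 20.1 ± 0.91 at day 0, 19.4 ± 2.8 at day 1 and 18.8 ± 1.5 at day 12, with overlapping days (adjusted p = 0.58 at day 1 and 0.149 at day 12 against day 0, exact permutation test), although the day 12 difference passed without day 12 replicate 2 (log2 difference -0.145 in place of -0.10). Col4a3 and Col4a4, the pair of kidney and other specialised membranes, reached at most 24 and 23 counts in a library. Col4a3 was not tested, and Col4a4 was not called, with log2 fold changes of -0.28 ± 0.62 at day 1 and 0.76 ± 0.56 at day 12.

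Ratios were compared in this way for the 9 pairs of partner chains with both members tested, and 22 of 27 comparisons passed, each at p = 0.00794 by the exact permutation test. Against day 0, 7 of 9 pairs differed at day 1 and 7 of 9 at day 12. By adjusted p alone, 36.2% of all tested genes were lower and 35.3% higher at day 1, and 37.4% and 39.2% at day 12. Ratios of other pairs of genes were not computed, so these counts do not set partner chains apart from other pairs. The Col1a1 to Col1a2 ratio was 0.528 ± 0.023 at day 0, 0.442 ± 0.0079 at day 1 and 0.521 ± 0.032 at day 12. Day 1 was below both other days, which overlapped (adjusted p = 0.737, exact permutation test). The Col5a1 to Col5a2 ratio was 0.347 ± 0.024 at day 0, 0.344 ± 0.028 at day 1 and 0.260 ± 0.014 at day 12, where day 12 was below both other days and days 0 and 1 overlapped (adjusted p = 0.841).

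**Figure D3:**
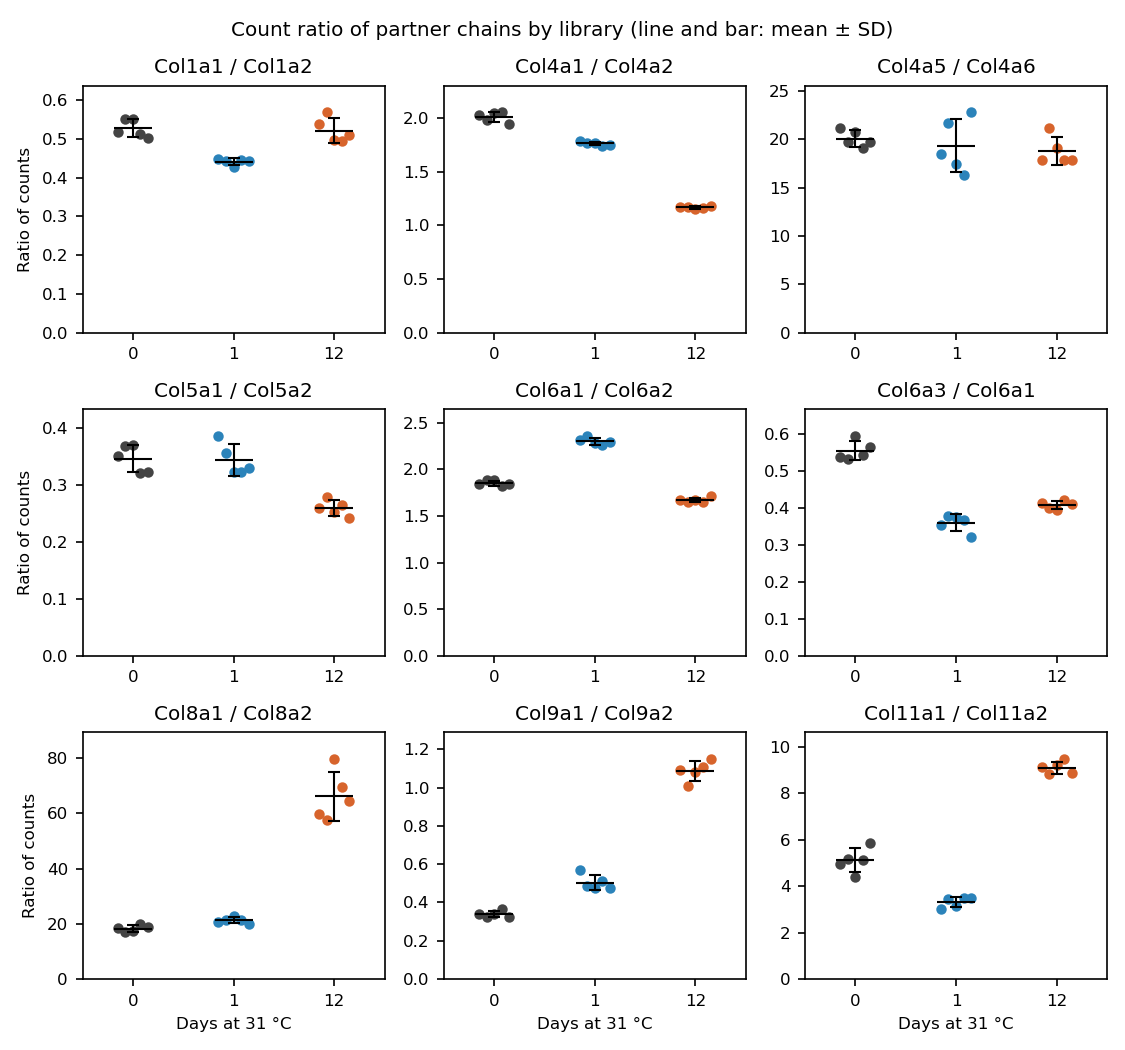
Ratio of counts of 9 pairs of partner chains, 1 point per library, with the group mean and SD in black and each axis starting at 0. The Col4a1 to Col4a2 ratio steps down from a mean of 2.01 to 1.76 and 1.17, those of Col8a1 to Col8a2, Col9a1 to Col9a2 and Col11a1 to Col11a2 are highest at day 12, and that of Col4a5 to Col4a6 overlaps between days.

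Type VI collagen is a trimer of Col6a1, Col6a2 and a further chain, mostly Col6a3, and Col6a3 was the 1 of these 3 that was called. Col6a3 was at 1859, 1745, 2094, 1772 and 1792 CPM at day 0, at 1132, 1191, 1161, 1187 and 1029 CPM at day 1 and at 999, 990, 959, 1043 and 966 CPM at day 12. Days 1 and 12 lay below day 0 and overlapped each other, with log2 fold changes of -0.70 ± 0.04 and -0.90 ± 0.04 (adjusted p = 6.134e-13 and 2.922e-15, edgeR). Col6a1 was at 3340 ± 141, 3171 ± 54.7 and 2434 ± 47.1 CPM at days 0, 1 and 12 and Col6a2 at 1804 ± 71.3, 1380 ± 35.7 and 1456 ± 48.5 CPM at days 0, 1 and 12, with log2 fold changes between -0.46 and -0.07 for Col6a1 and between -0.39 and -0.31 for Col6a2, within the limit. The Col6a3 to Col6a1 ratio was 0.554 ± 0.026 at day 0, 0.360 ± 0.023 at day 1 and 0.407 ± 0.011 at day 12, and the Col6a1 to Col6a2 ratio 1.85 ± 0.026 at day 0, 2.30 ± 0.038 at day 1 and 1.67 ± 0.025 at day 12. All 3 days differed in both ratios (adjusted p = 0.00974 each, exact permutation test). The remaining type VI chains, Col6a4, Col6a5 and Col6a6, reached at most 21, 6 and 2 counts in a library.

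The FACIT class held the largest fall. Of 8 tested chains, 1 was called lower and 1 higher at day 1, near the 13.4% and 7.71% of all tested genes. At day 12, 5 were called lower and 1 higher, beside 16.2% and 13.0%. Col20a1 was at 3.82, 3.70, 3.43, 3.46 and 3.52 CPM at day 0, at 1.56, 1.26, 1.16, 1.70 and 1.34 CPM at day 1 and at 0.100, 0.252, 0.279, 0.128 and 0.176 CPM at day 12. Its days did not overlap, and its log2 fold change was -1.36 ± 0.14 at day 1 and -4.27 ± 0.19 at day 12 (adjusted p = 3.915e-16, edgeR), with 9 to 23 counts per library at day 12. Col14a1, which regulates fibril growth, was at 4.67, 5.64, 5.80, 4.85 and 3.67 CPM at day 0, at 3.98, 3.62, 4.28, 4.02 and 4.02 CPM at day 1 and at 0.872, 0.782, 0.547, 0.898 and 0.724 CPM at day 12. Days 0 and 1 overlapped and day 12 lay below both, at -2.69 ± 0.13 on the log2 scale. Col16a1, found at fibrils and near basement membranes, was at 328 ± 20.1, 285 ± 8.18 and 198 ± 2.17 CPM at days 0, 1 and 12, and its day 12 call at -0.73 ± 0.03 was lost with total counts (-0.54). Col22a1, a chain of tissue junctions with at most 29 counts in a library, was called lower at day 12 (-2.34 ± 0.54) although its groups overlapped. At day 1 it was not called except without day 0 replicate 5 (-1.08). Its call from day 1 to day 12 (-1.48 ± 0.59) was lost without any of day 1 replicates 1, 3 and 5 and day 12 replicates 2, 3 and 4 (-1.41 to -1.28), with reference genes (-1.33) and with total counts (-1.31). Col12a1, the most counted FACIT chain and a component of tissues under tension, was at 3389 ± 158, 2954 ± 275 and 3471 ± 136 CPM at days 0, 1 and 12 and was not called.

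Chains known from cartilage did not share 1 direction. This group of 7 (Col2a1, Col9a1, Col9a2, Col9a3, Col10a1, Col11a1 and Col11a2) crosses the classes, leaves out Col27a1, and was chosen after its values were seen. It held 1.33% ± 0.073 of collagen CPM per kb at day 0, 1.66% ± 0.094 at day 1 and 2.02% ± 0.20 at day 12, and with Col27a1, which was lower at day 12, 1.43% ± 0.079, 1.79% ± 0.099 and 2.08% ± 0.20. Col9a1, a chain of the type IX collagen on cartilage fibrils, was at 12.1, 11.6, 13.8, 11.2 and 10.6 CPM at day 0, at 22.0, 19.5, 20.9, 19.0 and 19.3 CPM at day 1 and at 21.7, 21.3, 28.4, 24.9 and 26.4 CPM at day 12. Days 1 and 12 overlapped and lay above day 0, with log2 fold changes of 0.76 ± 0.07 and 1.05 ± 0.07 (adjusted p = 2.075e-09 and 3.72e-12, edgeR). Its partner Col9a2 was at 35.1 ± 3.59, 40.0 ± 2.49 and 22.5 ± 2.43 CPM at days 0, 1 and 12 and was called lower at day 12 (-0.64 ± 0.07), a call lost with total counts (-0.45). The Col9a1 to Col9a2 ratio was 0.339 ± 0.017 at day 0, 0.504 ± 0.040 at day 1 and 1.09 ± 0.051 at day 12, with 3 separate days. The last type IX chain, Col9a3, was at 19.0 ± 1.31, 20.7 ± 0.96 and 15.9 ± 1.77 CPM at days 0, 1 and 12 and was not called.

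Col11a1 and Col11a2, which nucleate cartilage fibrils, moved in opposite directions from day 1 to day 12. Col11a1 was at 131, 135, 136, 134 and 133 CPM at day 0, at 98.1, 108, 113, 107 and 108 CPM at day 1 and at 168, 163, 189, 178 and 174 CPM at day 12. Col11a2 was at 26.5, 26.0, 30.9, 26.1 and 22.8 CPM at day 0, at 32.5, 31.2, 36.2, 30.9 and 31.0 CPM at day 1 and at 18.5, 18.4, 20.6, 18.8 and 19.6 CPM at day 12. From day 1 to day 12 Col11a1 was called higher (0.71 ± 0.04) and Col11a2 lower (-0.75 ± 0.06, and -0.58 and not called with total counts), with no overlap. Their ratio was 5.11 ± 0.51 at day 0, 3.31 ± 0.22 at day 1 and 9.09 ± 0.26 at day 12. Col10a1, the network collagen of hypertrophic cartilage, was at 4.21 ± 0.66, 4.71 ± 0.22 and 6.78 ± 0.72 CPM at days 0, 1 and 12 and was called higher at day 12 (0.69 ± 0.09). Col2a1, the main fibril of cartilage, was at 149 ± 15.8, 155 ± 7.45 and 182 ± 23.9 CPM at days 0, 1 and 12, with overlapping groups and no call.

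Of 7 chondrocyte markers outside the collagens, 5 reached 1 CPM in each group, and their summed level was 3683 to 4422 CPM at day 0, 3914 to 4075 CPM at day 1 and 1021 to 1103 CPM at day 12. Of 6 tested at day 12, 4 were called lower and 1 higher, beside 16.2% and 13.0% of all tested genes. Comp, a matrix protein that binds collagens, was at 3717 ± 254, 3708 ± 71.4 and 919 ± 37.2 CPM at days 0, 1 and 12, and Acan, the core proteoglycan of cartilage, at 56.4 ± 8.75, 61.7 ± 5.26 and 28.8 ± 2.39 CPM at days 0, 1 and 12. Matn1, a defining cartilage protein, had at most 2 counts in a library and 0 in all day 12 libraries. The part of such cells in the cartilage collagen values was not tested.

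**Figure D4:**
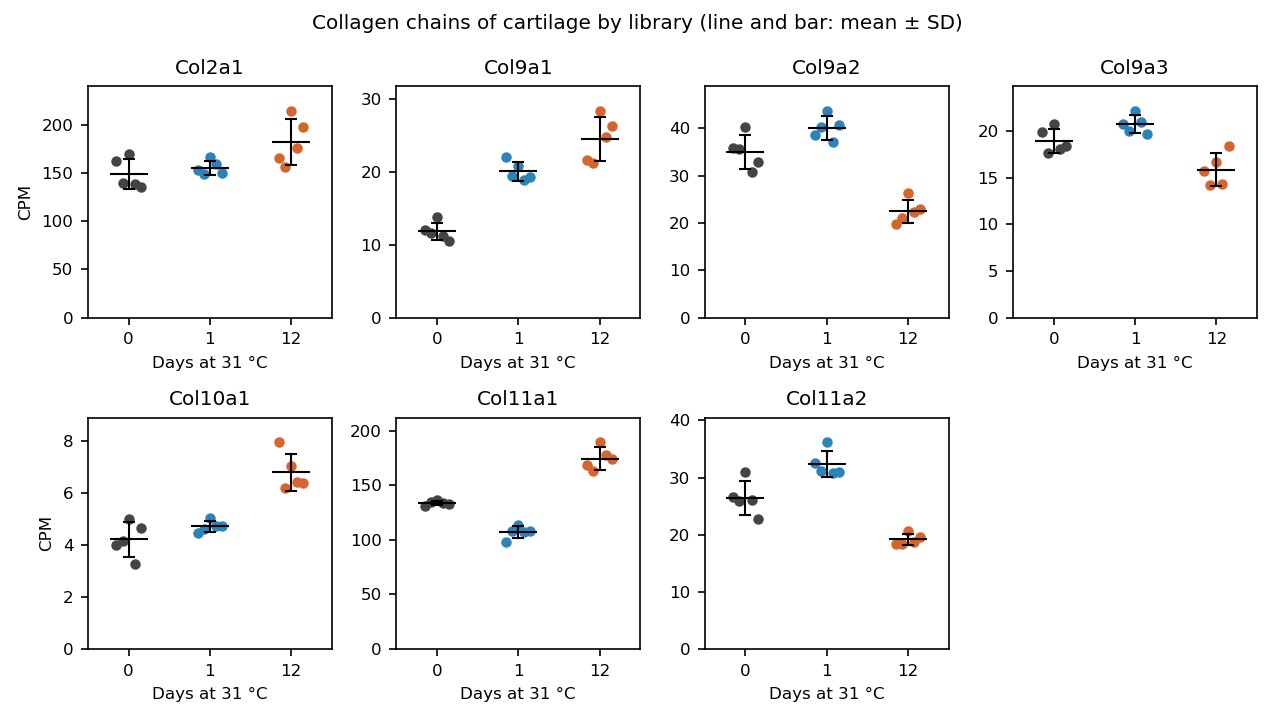
CPM of the 7 cartilage-type chains by library, with group mean and SD in black and each axis starting at 0. Col9a1, Col10a1 and Col11a1 are highest at day 12, with means of 24.5, 6.78 and 174.5 CPM, while Col9a2 and Col11a2 are lowest there, with means of 22.5 and 19.2 CPM.

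Type VIII collagen, a network of vessel walls and specialised membranes, was called in 1 of its chains. Col8a1 was at 1443 ± 43.0, 1284 ± 38.7 and 1381 ± 35.3 CPM at days 0, 1 and 12 and was not called. Col8a2, whose upstream bases are given above, was at 81.0, 85.3, 78.8, 72.7 and 78.2 CPM at day 0, at 61.2, 61.7, 57.3, 57.4 and 64.7 CPM at day 1 and at 22.9, 23.5, 18.0, 20.1 and 21.0 CPM at day 12. Its days did not overlap, with log2 fold changes of -0.39 ± 0.05 and -1.91 ± 0.06 (adjusted p = 1.788e-19, edgeR). The Col8a1 to Col8a2 ratio was 18.3 ± 1.1 at day 0, 21.3 ± 1.1 at day 1 and 66.2 ± 8.8 at day 12, and its log2 difference of 1.85 at day 12 was the largest of the 9 pairs against day 0.

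Both multiplexins were called lower at both times against day 0, beside 13.4% of all tested genes at day 1 and 16.2% at day 12. Col15a1, which lies beneath basement membranes of muscle and fat, was at 61.7, 56.1, 57.3, 56.7 and 55.7 CPM at day 0, at 32.3, 27.9, 26.1, 30.1 and 29.6 CPM at day 1 and at 16.7, 19.8, 16.5, 16.0 and 14.6 CPM at day 12. Its days did not overlap, with log2 fold changes of -0.98 ± 0.06 and -1.78 ± 0.06, and the step from day 1 to day 12 was also called (-0.81 ± 0.06). Col18a1, the precursor of endostatin, was at 205, 188, 193, 184 and 202 CPM at day 0, at 119, 126, 118, 123 and 127 CPM at day 1 and at 102, 109.8, 105, 113 and 105 CPM at day 12. Its days did not overlap either, with log2 fold changes of -0.66 ± 0.03 and -0.86 ± 0.03 (adjusted p = 1.8e-14 and 6.885e-17, edgeR), and the step from day 1 to day 12, -0.19 ± 0.03, was within the limit.

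The remaining chains were low. Col28a1, a chain known from peripheral nerve, was at 4.43, 4.99, 3.76, 3.86 and 6.27 CPM at day 0, at 2.68, 3.69, 3.78, 3.10 and 3.21 CPM at day 1 and at 11.5, 12.1, 14.1, 12.3 and 13.0 CPM at day 12. Day 12 lay above both other days, which overlapped, with log2 fold changes of -0.50 ± 0.12 and 1.44 ± 0.11 against day 0, the former not called except with reference genes (-0.59). The 4 Schwann cell markers summed to 58.4 to 62.6 CPM at day 0, 71.9 to 78.5 CPM at day 1 and 61.9 to 70.4 CPM at day 12, when Sox10 was at 0. Of 3 tested, 2 were called higher at day 12, beside 13.0% of all tested genes. The part of Schwann cells in the Col28a1 result was not tested. Col7a1, the chain of anchoring fibrils under epithelia, was at 1.08 ± 0.100, 0.645 ± 0.075 and 1.30 ± 0.17 CPM at days 0, 1 and 12, called lower at day 1 (-0.74 ± 0.16) and higher from day 1 to day 12 (1.02 ± 0.16). Of the transmembrane chains, Col23a1 was at 21.1 ± 1.77, 19.1 ± 1.46 and 21.8 ± 1.94 CPM at days 0, 1 and 12 and was not called. Col25a1, a neuronal chain, was at 1.03 ± 0.18, 0.668 ± 0.23 and 1.06 ± 0.15 CPM at days 0, 1 and 12. Its call at day 1 (-0.60 ± 0.21) was lost without any of day 0 replicates 1, 3 and 4 and day 1 replicates 1 and 2 (-0.58 to -0.44) and with total counts (-0.58), and its call from day 1 to day 12 (0.65 ± 0.22) without day 1 replicate 1 (0.48) or day 12 replicate 3 (0.57). Col17a1, a hemidesmosome protein with at most 89 counts in a library, was called higher at day 1 (1.14 ± 0.30) with overlapping groups, and not among the 11 libraries of the larger library number series (0.79). At day 12 its log2 fold change was 0.62 ± 0.30, called on leaving out replicate 1 (0.76) or 3 (0.73) of day 0 or replicate 3 of day 1 (0.62), and with reference genes or total counts.

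The list for modification and folding of collagen chains in the endoplasmic reticulum also held the general folding proteins Hspa5 and Pdia3 and the transcription factor Creb3l1. Of its 20 tested genes, 8 were called lower and 1 higher at day 1, beside 13.4% and 7.71% of all tested genes. At day 12, 11 were lower and 1 was higher, beside 16.2% and 13.0%. Their median log2 fold change was -0.276 at day 1 and -0.788 at day 12, where that of all tested genes was -0.00884 and 0.0123. P4ha1 and P4ha2 encode catalytic subunits of prolyl 4-hydroxylase, which stabilises the helix. P4ha1 was at 462 ± 12.0, 203 ± 2.80 and 140.3 ± 6.54 CPM at days 0, 1 and 12 (-1.19 ± 0.03 and -1.72 ± 0.03 on the log2 scale), and P4ha2 at 435 ± 18.0, 199.9 ± 5.02 and 126 ± 1.55 CPM at days 0, 1 and 12 (-1.12 ± 0.03 and -1.79 ± 0.03). Plod2, the lysyl hydroxylase that directs cross-links, was at 604 ± 22.7, 359 ± 11.5 and 199 ± 5.56 CPM at days 0, 1 and 12 (-0.75 ± 0.03 and -1.60 ± 0.03). Serpinh1, the collagen chaperone HSP47, and Hspa5, the general chaperone BiP, were chosen after their values were seen. Serpinh1 was at 1249 ± 25.4, 484 ± 11.6 and 504 ± 8.30 CPM at days 0, 1 and 12 and Hspa5 at 1265 ± 37.7, 429 ± 5.03 and 646 ± 19.8 CPM at days 0, 1 and 12, both called lower at both times. Fkbp10, a prolyl isomerase that helps the helix fold, went the other way, at 179.8 ± 5.86, 294 ± 6.50 and 272 ± 7.81 CPM at days 0, 1 and 12 (0.71 ± 0.03 and 0.59 ± 0.03). Its day 12 call was lost on leaving out replicate 2 or 4 of day 0 or replicate 3 of day 12 (0.58 each).

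**Figure D5:**
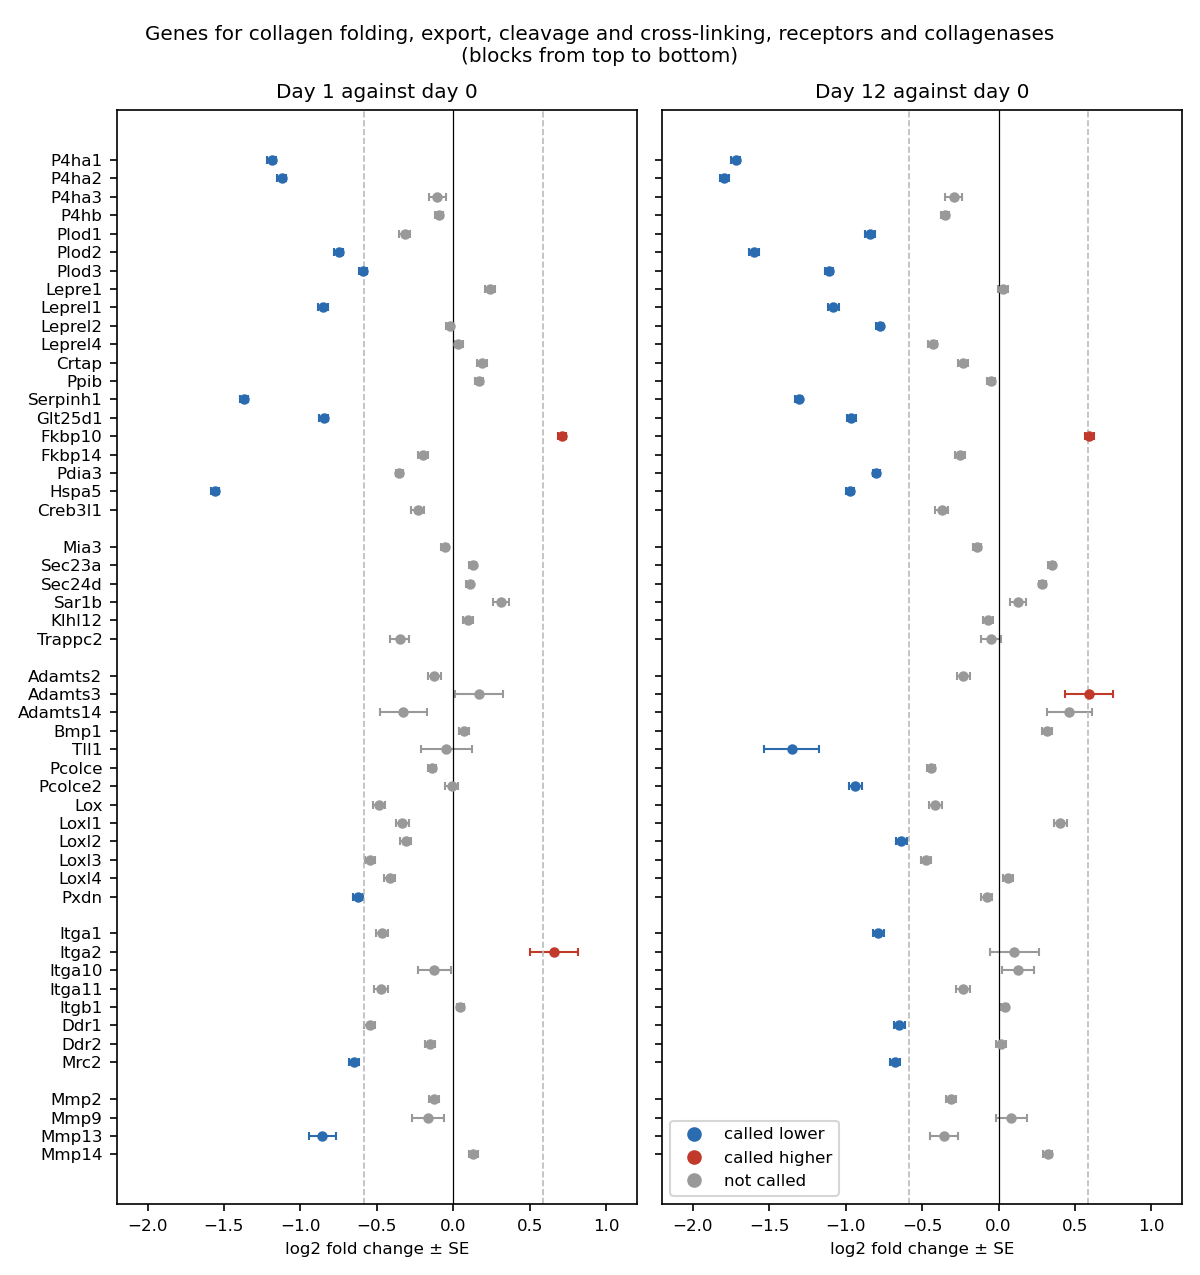
Log2 fold change with its SE at day 1 (left) and day 12 (right) against day 0 for the tested genes of the collagen pathway, with dashed lines at a 1.5-fold change. Blocks from the top are folding and modification (20 genes), export (6), cleavage and cross-linking (13), receptors (8) and collagenases (4), and the blue points, called lower, number 8 and 11 in the top block and 0 in the export block.

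None of 6 tested procollagen export genes was called in either direction at either time by edgeR or DESeq2, although at an unadjusted p under 0.05 there were 6 genes at day 1, of which 4 were higher, and 4 at day 12, of which 3 were higher. Of 13 cleavage and cross-linking genes, 1 was called lower at day 1, beside 13.4% of all tested genes, and 3 lower and 1 higher at day 12, beside 16.2% and 13.0%. The day 1 call was Pxdn, which cross-links type IV collagen, at -0.62 ± 0.03 on the log2 scale at day 1 and -0.08 ± 0.03 at day 12, and it was named after its values were seen. At day 12 the lower ones were Tll1, a procollagen C-proteinase (-1.35 ± 0.18), Pcolce2, a proteinase enhancer (-0.94 ± 0.04), and Loxl2, a lysyl oxidase (-0.64 ± 0.04, and -0.44 and not called with total counts). The higher one was Adamts3, a procollagen N-proteinase at 1.95 ± 0.44, 2.19 ± 0.46 and 2.93 ± 0.41 CPM at days 0, 1 and 12 (0.59 ± 0.15), whose call was lost on leaving out replicate 2, 3 or 5 of day 0 or replicate 1 or 5 of day 12 (0.48 to 0.58). With total counts, Adamts14 (0.66) and Loxl1 (0.60) were also called higher at day 12.

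Of 8 tested collagen receptors, 1 was called lower and 1 higher at day 1, near the 13.4% and 7.71% of all tested genes, and 3 lower at day 12, beside 16.2%. Mrc2, an endocytic collagen receptor, was at 408 ± 19.3, 259.6 ± 6.95 and 255 ± 11.7 CPM at days 0, 1 and 12 and was lower at both times (-0.65 ± 0.03 and -0.68 ± 0.03). The integrin Itga1 (-0.79 ± 0.04) and the receptor kinase Ddr1 (-0.65 ± 0.04) were lower at day 12, and with total counts the calls of Mrc2 (-0.48) and Ddr1 (-0.46) at day 12 were lost. Itga2, at 1.02 ± 0.068, 1.61 ± 0.30 and 1.09 ± 0.20 CPM at days 0, 1 and 12, was called higher at day 1 (0.66 ± 0.16), but not without day 1 replicate 1 (0.56). Of 4 tested collagenases and gelatinases, Mmp13, which cleaves fibrillar collagen, was called lower at day 1, at 140.4 ± 19.0, 77.4 ± 13.9 and 109.6 ± 2.82 CPM at days 0, 1 and 12 (-0.86 ± 0.09 and -0.36 ± 0.09), and none was called at day 12 by edgeR or DESeq2, where 1 was above and 2 below day 0 at an unadjusted p under 0.05.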

How the data were processed

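RNA was measured by RNA-seq in 15 libraries of 3 groups. Per the labels, the authors extracted total RNA and, per the submitters' processing notes, used FastQC, TopHat2 2.0.13, Bowtie2 2.2.1, HTSeq and DESeq2 with build mm10. The authors deposited the HTSeq read counts per gene symbol as whole numbers, not normalized. The strand setting and the annotation release are not given in the sources used here, so reads of a gene and an antisense partner cannot be told apart. At most 6.07% of the exon bases of a collagen gene overlap another gene in GENCODE. Some pathway and marker genes share more, such as Tagln (67.9%), Itga10 (33.5%), Ppib (25.0%) and Lipe (15.6%). The authors also deposited regularised log2 values and tables of their own comparisons (fold changes and p-values), which were not used here.

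From the counts, edgeR 4.0.16 (R 4.3.3) was fitted to all 15 libraries with TMM scaling, filterByExpr with a minimum count of 10, and quasi-likelihood tests between the 3 groups, with Benjamini-Hochberg adjustment over the 14293 genes tested. SEs were derived from each gene's log2 fold change and F statistic. TMM factors ranged from 0.946 to 1.09. The variation between libraries of a group beyond counting error, estimated as 1 value for all genes, was a CV of 5.25%, and single genes can vary more. A count of 0 allows up to 3 counts, 0.0238 CPM in the deepest library and 0.0428 CPM in the shallowest, for counting error only. CPM per kb used the longest GENCODE transcript with a RefSeq mRNA. Ratios of partner chains used counts plus 0.5 on the log2 scale and exact two-sided permutation tests. The fit was tested on simulated data.

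The collagen genes and gene lists were chosen with earlier results of these data known. Collagen genes with a group mean of at least 1 CPM, or called, are named, and in each pathway list up to 3 called higher and 3 called lower with the largest change against day 0 and a mean of at least 1 CPM. Pathway lists held 21 folding and modification, 7 export, 14 cleavage and cross-linking, 10 receptor and 7 collagenase and gelatinase genes. Alternatives were DESeq2 1.42.0, other scalings and filters, adjusted p alone, the replicate number as a block, the library number series, and leaving out each library. Same-numbered libraries did not deviate together (r from -0.0255 to 0.0436 over 15 pairs), so the numbers were not taken to pair them. Upstream sequences came from RefSeq, with a window for 35 of the 43 genes.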

Additional observations from a re-analysis of the deposited data

Results flagged for a closer look

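Of 108 groups of 5 libraries tested over the named collagen genes, 2 had a library far from the others by Dixon's criterion, where chance marks about 1 in 20 groups. Col12a1 was at 2472 CPM in day 1 replicate 5, the lowest of its group, whose median was 3044 CPM, with a gap to the nearest library of 0.803 of the range. Col15a1 was at 61.7 CPM in day 0 replicate 1, the highest of its group, whose median was 56.7 CPM, with a gap of 0.735 of the range. Leaving out either library changed no call of these 2 genes.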

How the results depend on the processing

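DESeq2, its size factors, no filter and the library number series as a covariate left the counts of called collagen genes within 1.5 times. Called higher at day 1 was 1 in the larger library number series and 1 with genes of at least 1 CPM. With adjusted p alone, higher and lower were 4 and 26 at day 1, 7 and 24 at day 12, and 17 and 16 from day 1 to day 12. Called higher at day 12 was 5 with reference genes and 5 with total counts, and from day 1 to day 12 it was 8 with either. With total counts, 3 cleavage and cross-linking genes were higher and 1 receptor was lower at day 12. Some small log2 fold changes turned sign. From day 1 to day 12, Col1a1 went to 0.0613 with reference genes and 0.0794 with total counts, and Col5a1 to 0.0854 and 0.104. At day 1, Col27a1 went to -0.0252 and Col2a1 to -0.0425 with reference genes, and Pcolce2 to 0.0092 with total counts. With total counts at day 12, Col4a6 went to 0.0077, Col8a1 to 0.13, Ppib to 0.15, Mia3 to 0.0536, Klhl12 to 0.12, Trappc2 to 0.14 and Pxdn to 0.11. The cause was not tested.

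Leaving out each library gave 3 to 5 collagen genes higher at day 12 (5 without day 0 replicate 1). It gave 0 to 1 receptor higher and 1 to 2 collagenases lower at day 1 (2 without day 1 replicate 5), and 0 to 1 folding and 0 to 1 cleavage gene higher at day 12. Col25a1 at day 12 ranged from -0.0452 to 0.106, Tll1 at day 1 from -0.130 to 0.0450, and Pcolce2 at day 1 from -0.0405 to 0.0231. Log2 ratio differences ranged from -0.0495 to 0.000941 for Col1a1 to Col1a2 at day 12, from -0.145 to -0.08 for Col4a5 to Col4a6 at day 12, from -0.0932 to 0.0275 for that pair from day 1 to day 12, and from -0.0565 to 0.0113 for Col5a1 to Col5a2 at day 1. With the replicate number as a block, Col24a1 at day 12 was called (0.59), and no other collagen or pathway gene named changed its call. The sign permutation of ratios over 5 blocked pairs cannot go below p = 0.0625 and so says nothing about stability. Depth limits the 6 untested chains and Col4a4, Col17a1 and Col22a1, whose counts were low.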
